A study of Mus musculus with 6 samples.

Results

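The C-type natriuretic peptide and osteocrin system was followed in newborn mouse calvaria as 7 genes, taken by symbol from the 44556 genes counted. They were the ligands *Nppc* and *Ostn*, the receptors *Npr1*, *Npr2* and *Npr3*, and the cGMP-dependent protein kinases *Prkg1* and *Prkg2*. All 7 were counted in every library, and all 7 passed the filter on low counts. RNA came from the parietal bone of C57BL/6 newborns in both groups. The 3 OsxCre mice carried an Osterix-driven Cre transgene, which is active mainly in osteoblast precursors, and their label gives no floxed *Stat3*. The 3 libraries labelled OsxCre;Stat3fl/fl came from mice with the same Cre and both *Stat3* alleles floxed, so Cre itself is shared by the groups and deletion is restricted to cells in which Cre has acted. The study used the comparison to learn how loss of *Stat3* in osteoblast-lineage cells changes gene expression.

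C-type natriuretic peptide, encoded by *Nppc*, is a short secreted peptide that binds the receptor encoded by *Npr2*. That receptor is a guanylyl cyclase, and the cyclic GMP it makes activates the kinases encoded by *Prkg1* and *Prkg2*. In growth plate cartilage, C-type natriuretic peptide restrains FGF receptor signalling and promotes bone growth. The receptor encoded by *Npr3* has no cyclase domain and removes natriuretic peptides from the cell surface. Osteocrin, encoded by *Ostn*, is secreted by osteoblasts and by skeletal muscle and occupies the *Npr3* receptor, which spares C-type natriuretic peptide from removal. *Npr1* encodes the cyclase receptor for the atrial and B-type peptides.

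To show the ligand genes beside each other, a pattern of codons was searched in their coding sequences (GENCODE vM1 transcripts). Below are the stretches around codons for phenylalanine and glycine, any 3 codons, and codons for aspartate and arginine. The capitals mark the 4 fixed codons.
Nppc: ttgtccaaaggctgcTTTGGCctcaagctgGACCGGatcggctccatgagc
Ostn, first match: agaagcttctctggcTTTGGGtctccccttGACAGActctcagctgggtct
Ostn, second match: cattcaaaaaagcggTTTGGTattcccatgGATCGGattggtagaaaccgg
Nppb: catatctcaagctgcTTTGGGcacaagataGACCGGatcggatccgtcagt

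The match lay at codons 111 to 117 of the 126 codons of *Nppc*, and at codons 84 to 90 and 113 to 119 of the 130 codons of *Ostn*. Among 22594 protein-coding genes, 62 (0.274%) held at least 1 such match and 2 held more than 1. Over 11 codons centred on the match, *Nppc* and the second match of *Ostn* encoded the same residue at 6, *Nppc* and the first match of *Ostn* at 5, and *Nppc* and *Nppb* at 8, of which the search pattern itself fixes 4 in every pair. *Nppb*, the B-type peptide gene shown for comparison, was almost unread in the bone, with 2 counts over all 6 libraries.

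The libraries held between 8193651 and 12080044 counts on genes. Each library labelled OsxCre;Stat3fl/fl was smaller than each OsxCre library, and levels below are CPM, counts brought to one common total per library after scaling by edgeR's TMM method. *Stat3* itself had between 134.5 and 149.9 CPM in OsxCre and between 152.9 and 155.3 CPM in the libraries labelled OsxCre;Stat3fl/fl, so the count of the targeted gene was not lower. In the study's mice the loxP sites flank only some exons of *Stat3*, and Cre acts mainly in osteoblast precursors. A count over the whole gene and all cells of the tissue therefore cannot show whether the deletion took place, and genotypes rest on the labels. The study describes the newborns as male, yet genes of the Y chromosome were nearly unread: *Ddx3y* and *Kdm5d* had 0 counts throughout and *Eif2s3y* and *Uty* had 1 count each over the 6 libraries. *Xist*, expressed from the inactive X chromosome, had 7333 to 12392 counts per library. The labelled tissue expressed bone genes, with *Col1a1* the most counted osteoblast marker at 13060 ± 2131 CPM (SD, n = 3) in OsxCre, but also muscle genes, with *Acta1* at 11320 ± 729.6 CPM (SD, n = 3). The study's methods give 3 mice per genotype, which were littermates, while the labels do not tie each library to 1 animal, so p-values measure the spread between these libraries.

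None of the 7 genes differed between the genotypes by edgeR's quasi-likelihood test at an adjusted p under 0.05, where 1.26% of the 15600 genes tested did (0.481% lower and 0.776% higher in the libraries labelled OsxCre;Stat3fl/fl). In numbers these were 75 lower and 121 higher genes, and scaling by library totals alone gave 114 lower and 111 higher. With DESeq2 they were 231 and 307, with the replicate block 1 and 0, and without library 3 labelled OsxCre;Stat3fl/fl 5 and 7. At an unadjusted p under 0.05 the count was also 0 of 7, against 16.4% of all genes tested (8.34% lower and 8.03% higher), and DESeq2 and limma-voom each called 0 of 7 as well. Both ligand genes had lower means in the libraries labelled OsxCre;Stat3fl/fl and the 3 receptor genes had higher means, while the kinase genes had nearly equal means. The median log2 fold change of the 7 was 0.00, beside 0.00 over all genes tested. The groups did not overlap for 1 of the 7 genes, *Npr2*, where 23% of all genes tested had groups that did not overlap (12.2% lower and 10.8% higher).

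**Figure D1:**
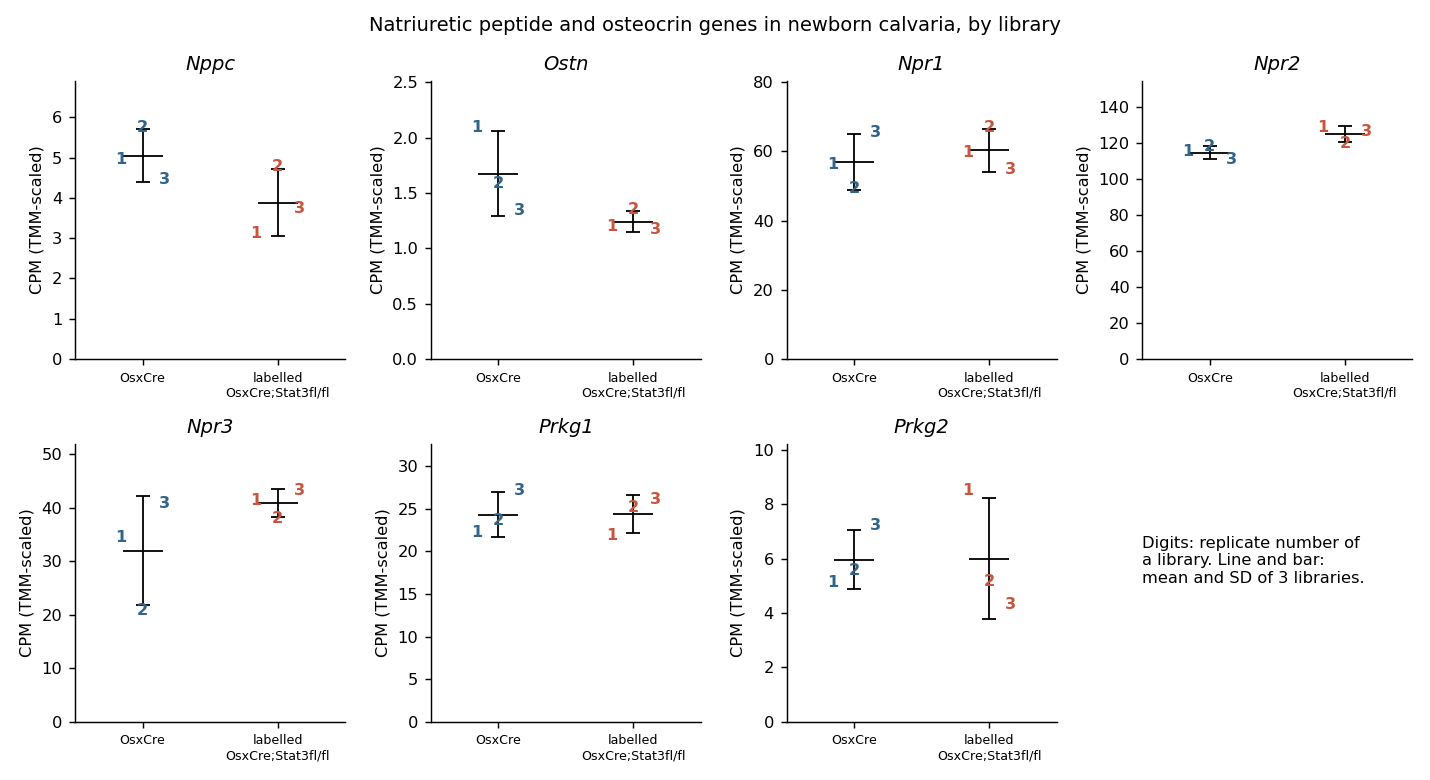
CPM (TMM-scaled, vertical axes from 0) of the 7 genes in each library, drawn as its replicate number, with the mean and SD of 3 libraries per genotype. Only the *Npr2* values separate by genotype, with 110.8 to 118 CPM in OsxCre and 120 to 128.9 CPM in the libraries labelled OsxCre;Stat3fl/fl.

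The ligand gene *Nppc* (chromosome 1, 86666293 to 86670573 in GRCm38) had 52, 58 and 53 counts in OsxCre libraries 1, 2 and 3 and 26, 39 and 32 counts in libraries 1, 2 and 3 labelled OsxCre;Stat3fl/fl. Scaled, these were 4.95, 5.75 and 4.45 CPM against 3.12, 4.78 and 3.74 CPM. Library 2 labelled OsxCre;Stat3fl/fl exceeded OsxCre library 3, so the groups overlapped. The means were 5.05 ± 0.657 CPM and 3.88 ± 0.838 CPM (SD, n = 3 each), a log2 fold change of -0.38 with a 95% interval from -0.92 to 0.16 (edgeR quasi-likelihood adjusted p = 0.474). In fold terms the interval ran from 0.529 to 1.12 of the OsxCre level. By an exact two-sided permutation test on CPM, p was 0.2, and the smallest p that 3 libraries per genotype allow is 0.1.

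*Ostn* (chromosome 16, 27307641 to 27351209) was the least counted of the 7, with 22, 16 and 16 counts in OsxCre and 10, 11 and 10 counts in the libraries labelled OsxCre;Stat3fl/fl. A count of 16 has an exact 95% Poisson interval from 9.15 to 26, and a count of 10 one from 4.8 to 18.4, which covers counting error only. After scaling, the values were 2.09, 1.59 and 1.34 CPM in OsxCre and 1.2, 1.35 and 1.17 CPM in the libraries labelled OsxCre;Stat3fl/fl. Only OsxCre library 3 fell within the range of the other genotype. The log2 fold change was -0.43 (95% interval -1.13 to 0.28, edgeR quasi-likelihood adjusted p = 0.54), and without OsxCre library 1 it was -0.23. In fold terms the interval ran from 0.457 to 1.21 of OsxCre.

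Because osteocrin is made by both bone and muscle, the marker genes of these tissues are given beside it. Of 15 skeletal muscle markers, 12 had higher means in the libraries labelled OsxCre;Stat3fl/fl and 3 lower. At an unadjusted p under 0.05 in edgeR's test 9 were higher and 1 lower. Without overlap of the groups, 7 were higher and 1 lower. Of all genes tested, 8.03% were higher and 8.34% lower at that p, and 10.8% were higher and 12.2% lower without overlap. At an adjusted p under 0.05 the myosin heavy chain gene *Myh3* was higher and *Myh4* lower. The summed level of the 15 muscle markers was 30430 to 33200 CPM in OsxCre and 35380 to 52430 CPM in the libraries labelled OsxCre;Stat3fl/fl. Of 11 osteoblast and osteocyte markers, 3 were lower and 0 higher at the unadjusted p, with the same counts without overlap of the groups. *Ibsp*, encoding bone sialoprotein, was lower at the adjusted p, and 9 of the 11 had lower means. Their summed level, most of it *Col1a1*, was 19330, 14340 and 16990 CPM in OsxCre and 13320, 15740 and 16950 CPM in the libraries labelled OsxCre;Stat3fl/fl. OsxCre library 1 was highest in both this sum and *Ostn*, while OsxCre library 2 had the second lowest sum and the second highest *Ostn*. The part of these tissues in the *Ostn* values was not tested, and in bulk RNA fewer cells of a type cannot be told apart from less RNA per cell.

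*Npr2* (chromosome 4, 43629015 to 43651437), the receptor of C-type natriuretic peptide, was the most counted of the 7. It had 115.2, 118 and 110.8 CPM in OsxCre and 128.9, 120 and 126.4 CPM in the libraries labelled OsxCre;Stat3fl/fl. Every library of the latter was above every OsxCre library, by a small margin at the nearest pair. Its log2 fold change was 0.13 with the narrowest interval of the 7 genes, from -0.03 to 0.28 (edgeR quasi-likelihood adjusted p = 0.408). A change past 0.978 or 1.22 of the OsxCre level thus lay outside the interval. The exact permutation test gave p = 0.1, the smallest that this design allows.

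*Npr3* (chromosome 15, 11839896 to 11907837), the clearance receptor shared by C-type natriuretic peptide and osteocrin, had 34.4, 20.7 and 40.7 CPM in OsxCre and 41.3, 38 and 43.3 CPM in the libraries labelled OsxCre;Stat3fl/fl. OsxCre library 2 stood well below the other 5 libraries, and the SD was 10.2 CPM in OsxCre against 2.66 CPM in the other genotype (n = 3 each). The log2 fold change was 0.35 (95% interval -0.15 to 0.86, edgeR quasi-likelihood adjusted p = 0.474). Without OsxCre library 2 it was 0.12, so most of the difference between the means came with that library. The same library had the lowest *Npr1* and the lowest sum of 6 endothelial markers, 528 CPM against 653.7 to 779.5 CPM in the others. It was also lowest, by a small margin, in the sum of skeletal muscle markers, 30430 CPM against 31230 to 52430 CPM in the others. The same held for smooth muscle and pericyte markers, 613.7 CPM against 624 to 808.3 CPM. All 6 endothelial markers had higher means in the libraries labelled OsxCre;Stat3fl/fl and 0 passed an adjusted p under 0.05 in edgeR's test, with 2 past an unadjusted p under 0.05. Of all genes tested, 8.03% were higher at that unadjusted p. The part of these tissues in the *Npr3* values was not tested.

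*Npr1* (chromosome 3, 90450591 to 90465928), the receptor of the atrial and B-type peptides, had 56.1, 49.4 and 65.5 CPM in OsxCre. In the libraries labelled OsxCre;Stat3fl/fl it had 59.6, 66.9 and 54.6 CPM. The ranges overlapped widely, and the log2 fold change was 0.08 (95% interval -0.20 to 0.37, edgeR quasi-likelihood adjusted p = 0.805). An *Npr1* level past 0.868 or 1.29 of OsxCre lay outside that interval. In GENCODE vM1, an annotated gene on the opposite strand, *Gm16048*, shares 559 bp with *Npr1* exons, and *Gm12473* shares 266 bp with *Npr2* exons. Whether the counting used strand is not stated, so reads over these bases cannot be assigned to one gene.

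The kinase genes showed the smallest differences between means. *Prkg1* (chromosome 19, 30564487 to 31765268), the more widely expressed of the pair, had 22.2, 23.6 and 27.2 CPM in OsxCre and 21.9, 25.1 and 26.1 CPM in the libraries labelled OsxCre;Stat3fl/fl. Its log2 fold change was 0.00 with a 95% interval from -0.28 to 0.28 (edgeR quasi-likelihood adjusted p = 0.998), or 0.825 to 1.21 of the OsxCre level.

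*Prkg2* (chromosome 5, 98929773 to 99037375) encodes the membrane-bound kinase through which C-type natriuretic peptide acts in growth plate chondrocytes. It had 5.14, 5.55 and 7.22 CPM in OsxCre and 8.53, 5.15 and 4.33 CPM in the libraries labelled OsxCre;Stat3fl/fl, so the latter group held both the highest and the lowest value. The log2 fold change was 0.00 with a 95% interval from -0.67 to 0.68 (edgeR quasi-likelihood adjusted p = 0.996). An interval reaching from 0.63 to 1.6 of OsxCre leaves room for sizeable changes either way. Without library 1 labelled OsxCre;Stat3fl/fl, the log2 fold change was -0.34. That library also had the highest sum of 7 cartilage markers, 3625 CPM against 1867 to 3377 CPM in the others, with *Col2a1* at 2677 CPM of it. *Col2a1*, *Acan* and *Sox9* were highest in that library. *Comp*, *Matn1* and *Col10a1* were highest in OsxCre library 3, and *Col9a1* in library 3 labelled OsxCre;Stat3fl/fl. Library 3 of the same genotype had the second highest cartilage sum, 3377 CPM, and the lowest *Prkg2*, so the order of the libraries differed between the measures. Of these markers 6 had higher means in the libraries labelled OsxCre;Stat3fl/fl, with 0 past the adjusted p and 1 past the unadjusted p. At that unadjusted p, 8.03% of all genes tested were higher. The part of cartilage in the *Prkg2* level of library 1 labelled OsxCre;Stat3fl/fl was not tested.

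**Figure D2:**
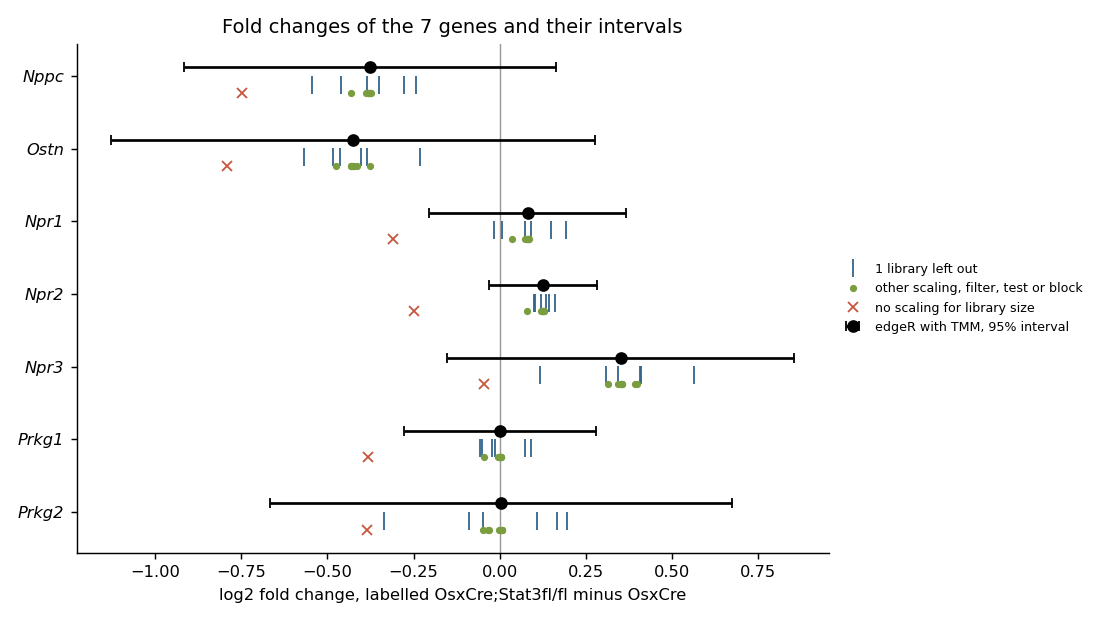
Log2 fold change of the 7 genes (horizontal axis, libraries labelled OsxCre;Stat3fl/fl minus OsxCre) from edgeR with TMM scaling with its 95% interval, above the values with 1 library left out and under the other settings. All 7 intervals include 0. The crosses, without scaling for library size, lie to the left for every gene, between -0.79 for *Ostn* and -0.04 for *Npr3*.

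The order of the levels was read per kb of the longest annotated coding transcript, since reads accumulate with length. *Npr2* came first at 32.8 CPM per kb over the 6 libraries, and its range did not meet that of *Npr1*, at 14.4 CPM per kb. *Prkg1* followed at 11.8 CPM per kb, and its range overlapped that of *Npr1*. *Npr3*, at 5.26 CPM per kb, and *Nppc*, at 4.28 CPM per kb, overlapped each other and lay apart from *Prkg1* above. *Prkg2* and *Ostn* were lowest, at 1.2 and 1.02 CPM per kb, with overlapping ranges. Thus the ligand genes were present at lower levels per length than the receptor *Npr2*, by all 3 measures of length used.

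The place of *Npr3* depended on the length. Its annotated transcript of 6927 bp has 5319 bp outside the coding sequence, whereas that of *Prkg1* has 3 bp. Per kb of coding sequence, a measure added after the lengths were seen, *Npr3* was second at 22.6 CPM per kb, with a range that overlapped that of *Npr1* (18.5 CPM per kb). *Nppc* had 11.8 CPM per kb, overlapping *Prkg1*, and *Ostn* stood at 3.74 against 2.62 CPM per kb for *Prkg2*, again with overlapping ranges. The transcript ends used in this bone were not measured here, so the places of the genes between *Npr2* and the lowest pair are given by length and not as one order. *Npr2* was first, *Nppc* next above the lowest pair, *Prkg2* and *Ostn*, under all 3 lengths, and the mean of *Npr1* was above that of *Prkg1* in each.

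**Figure D3:**
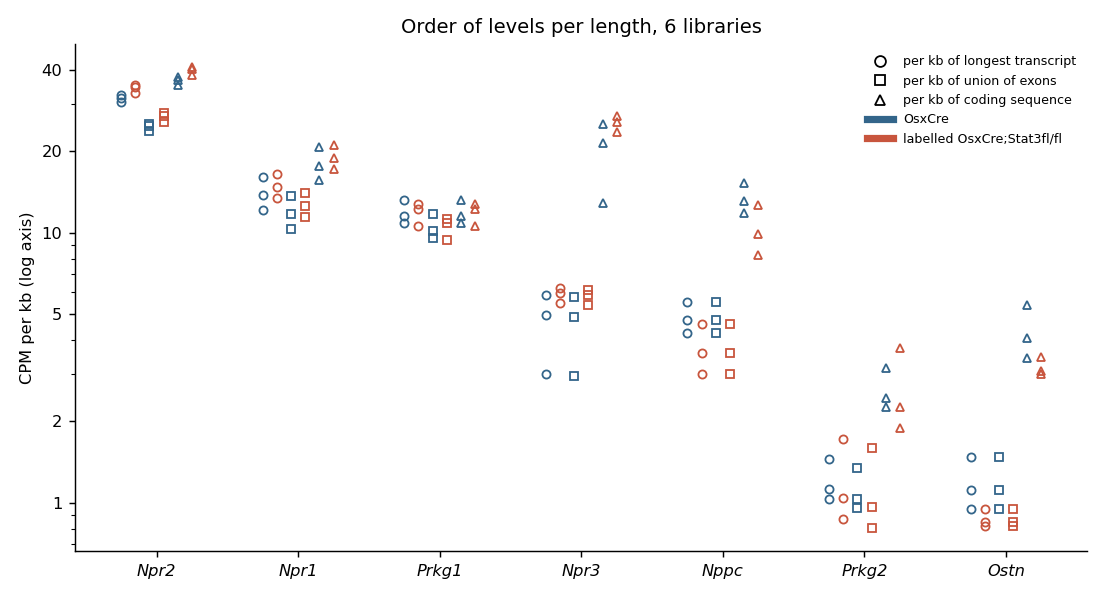
CPM per kb (log axis) of the 7 genes in each of the 6 libraries, by longest transcript (circles), union of exons (squares) and coding sequence (triangles). *Npr2* lies highest under every length, and *Npr3* moves from 5.26 to 22.6 CPM per kb between the longest transcript and the coding sequence.

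Ratios of counts within a library do not depend on how libraries are scaled, and 6 of them were formed after the values were seen, so they are given without a test. The ratio of *Nppc* to *Npr2* was 0.0429, 0.0487 and 0.0402 in OsxCre and 0.0242, 0.0398 and 0.0296 in the libraries labelled OsxCre;Stat3fl/fl. *Nppc* counts were thus lower relative to those of its receptor in every library of the latter, although the nearest pair, 0.0402 and 0.0398, nearly met. That pair rests on *Nppc* counts of 53 and 39. Their exact 95% Poisson intervals, 39.7 to 69.3 and 27.7 to 53.3, overlap. How often ratios of other gene pairs separate by genotype was not computed. The other 5 ratios overlapped between the groups.

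*Npr3* to *Npr2*, the clearance receptor relative to the signalling receptor, was 0.281 ± 0.0972 in OsxCre and 0.327 ± 0.0138 in the libraries labelled OsxCre;Stat3fl/fl (SD, n = 3 each). *Nppc* to *Npr3* was 0.177 ± 0.0889 and 0.096 ± 0.0264, and *Ostn* to *Npr3* was 0.0568 ± 0.0221 and 0.0305 ± 0.00441. OsxCre library 2 had the lowest of the 3 OsxCre values in the first of these ratios and the highest in the other two. *Npr1* to *Npr2* was 0.499 ± 0.0872 and 0.484 ± 0.0656. *Prkg2* to *Prkg1* was 0.244 ± 0.0185 and 0.254 ± 0.12, with the highest value, 0.39, in library 1 labelled OsxCre;Stat3fl/fl.

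**Figure D4:**
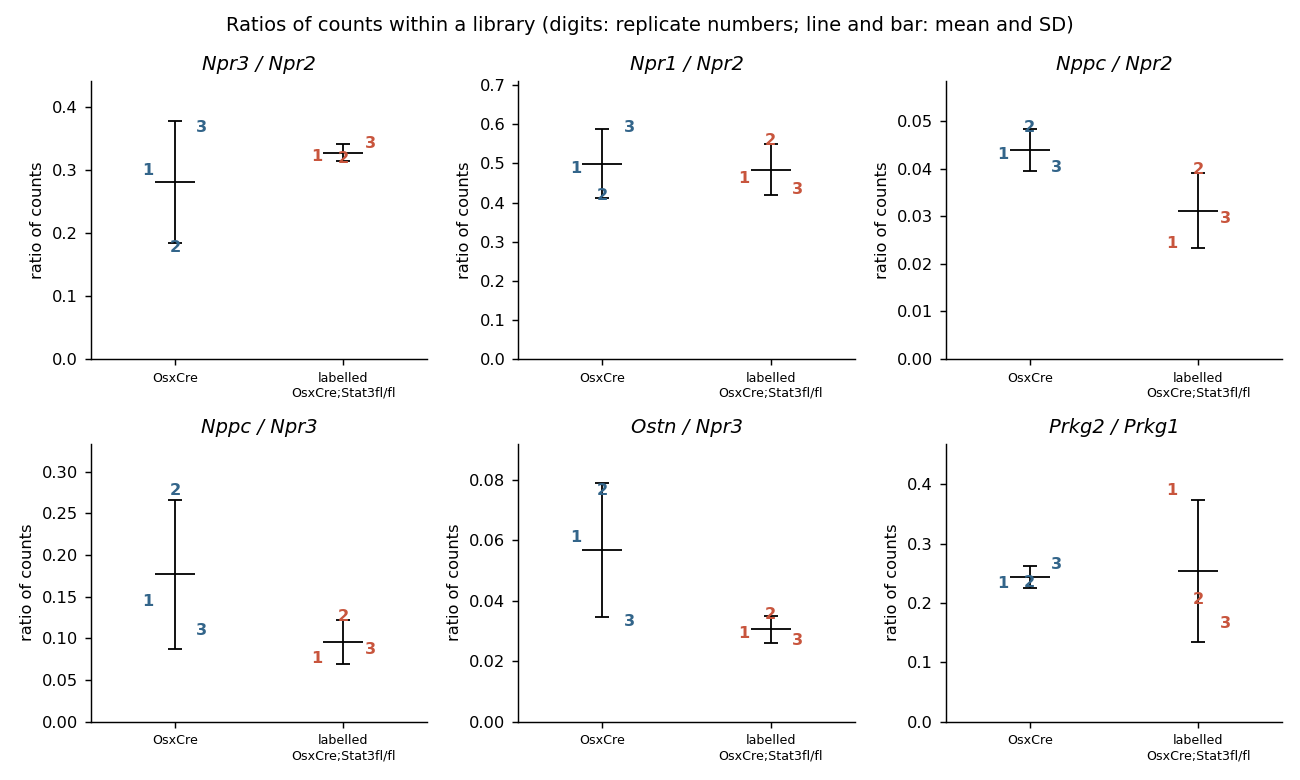
Ratio of counts within each library for 6 gene pairs (vertical axes from 0, digits are replicate numbers, line and bar are the mean and SD of 3 libraries). Only *Nppc* to *Npr2* separates by genotype, with 0.0402 to 0.0487 in OsxCre and 0.0242 to 0.0398 in the libraries labelled OsxCre;Stat3fl/fl.

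A list of 34 other genes of cyclic GMP signalling was read from the same fit. In edgeR's quasi-likelihood test, 0 of the 28 tested passed an adjusted p under 0.05 and 2 passed an unadjusted p under 0.05, both lower in the libraries labelled OsxCre;Stat3fl/fl, where 8.34% of all genes were lower at that p. The median log2 fold change of the 28 was -0.04, and 17 were lower and 11 higher.

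*Ide*, which encodes insulin-degrading enzyme, a protease that also cleaves natriuretic peptides, had 84.1, 77 and 87 CPM in OsxCre and 65.8, 64.5 and 61.2 CPM in the libraries labelled OsxCre;Stat3fl/fl. The groups lay apart, with a difference of -0.37 on the log2 scale (95% interval -0.55 to -0.20, edgeR quasi-likelihood adjusted p = 0.0698). DESeq2's Wald test gave it an adjusted p of 0.0336. At an adjusted p under 0.05 that test called 231 of the 15600 genes lower, against 75 by edgeR's test. Groups that lay apart, with the lower values in the latter genotype, were found for 12.2% of all genes tested. *Vasp*, which encodes an actin regulator phosphorylated by the cGMP-dependent kinases, had 90 to 94.6 CPM in OsxCre and 78.9 to 81.7 CPM in the other genotype. For *Vasp* the log2 fold change was -0.20 and the edgeR quasi-likelihood adjusted p was 0.191.

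Among genes of peptide processing and removal, *Furin*, which encodes a protease that cleaves the C-type natriuretic peptide precursor, had the most counts, at 103 ± 14.7 CPM in OsxCre and 120.5 ± 11.1 CPM in the libraries labelled OsxCre;Stat3fl/fl (SD, n = 3 each). All 5 tested genes of other cyclic GMP makers had lower means without passing either p, and *Nos3*, the endothelial nitric oxide synthase gene, had a log2 fold change of -0.04. Of the 6 genes of the opposing FGF arm, 5 had lower means, again with none past either p.

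Of the 7 tested phosphodiesterase genes, whose products break down cyclic nucleotides, 6 had higher means in the libraries labelled OsxCre;Stat3fl/fl, and 0 passed an unadjusted p under 0.05 in edgeR's test. *Pde1a*, the most counted, had 10.9 to 13.3 CPM in OsxCre and 13.6 to 16.3 CPM in the other genotype, without overlap. *Pde5a*, singled out after its values were seen, encodes the cyclic GMP-specific enzyme blocked by sildenafil. It had 2.38, 1.69 and 1.51 CPM in OsxCre and 3.12, 2.45 and 2.92 CPM in the libraries labelled OsxCre;Stat3fl/fl, a log2 fold change of 0.61 (95% interval -0.03 to 1.25, edgeR quasi-likelihood adjusted p = 0.326). Groups that did not overlap, with the higher values in the latter genotype, were found for 10.8% of all genes tested.

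**Figure D5:**
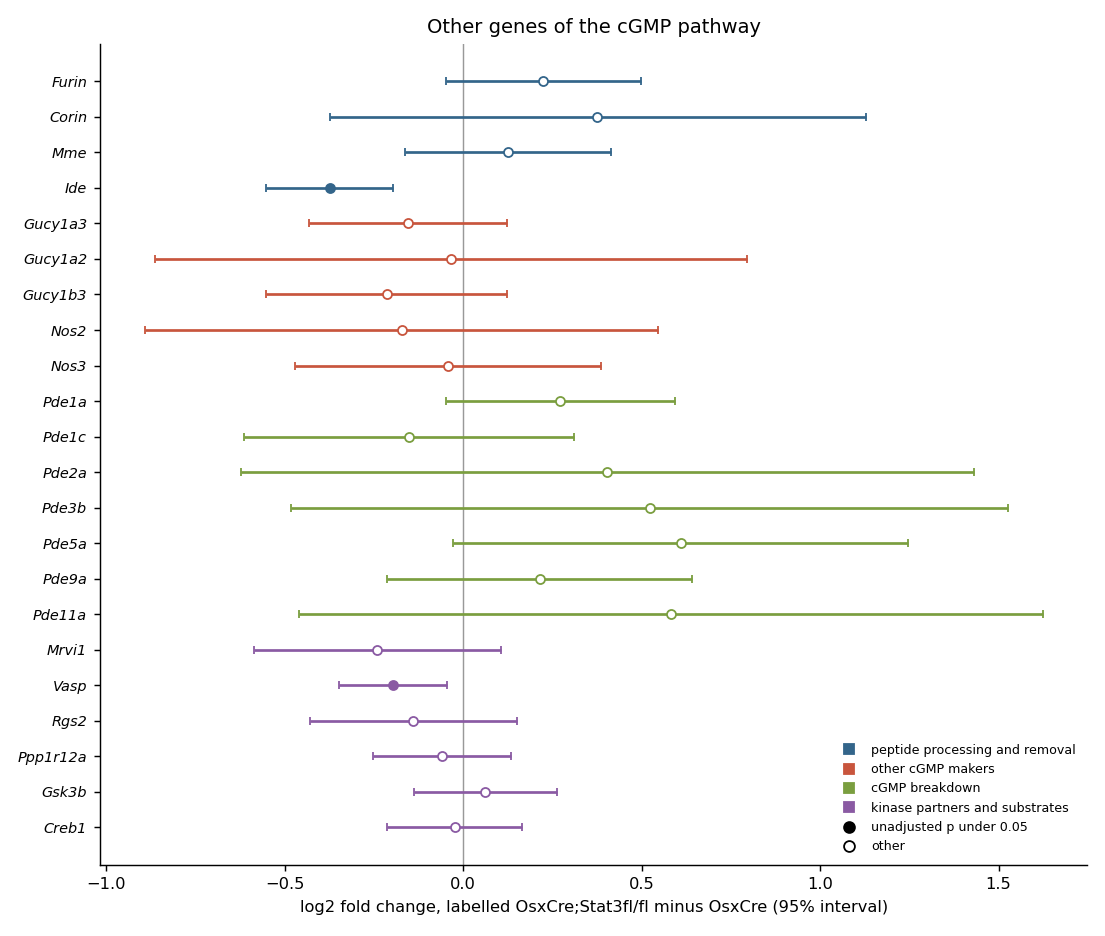
Log2 fold change (horizontal axis, libraries labelled OsxCre;Stat3fl/fl minus OsxCre) with its 95% interval for 22 of the 28 tested genes of cyclic GMP signalling, those outside the FGF arm, coloured by role. Only *Ide* and *Vasp*, with filled circles, have intervals that leave out 0 on the lower side.

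The variation of each of the 7 genes over the 6 libraries was compared with that of about 12178 other genes with a mean of at least 5 CPM, by Pearson's r of log2 CPM, as a description. With 6 libraries, between 44 and 145 genes had an r over 0.9 with each of the 7, so a close match is common at this number. Nearest to *Nppc* were *Dctpp1* (r = 0.998) and *Caprin1* (r = 0.988), and nearest to *Ostn* were *Akr1e1* (r = 0.993) and *Rab23* (r = 0.986). *Npr1* was matched by *Tpi-rs11* (r = 0.996) and *Isoc2a* (r = 0.99), *Npr2* by *Rasa4* (r = 0.988) and *Vgll3* (r = 0.986), and *Npr3* by *Cst3* (r = 0.98) and *Sugt1* (r = 0.978). For *Prkg1* they were *Rbp7* (r = 0.998) and *Bcl9* (r = 0.995), and for *Prkg2* they were *Srsf4* and *Edc4*, both at r = 0.97. Among the 7 genes themselves, the highest values were 0.672 for *Npr1* with *Npr3* and 0.671 for *Nppc* with *Ostn*, and the lowest was -0.756 for *Nppc* with *Npr3*. These points share libraries, depth and genotype.

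A STAT-type motif, TTCNNNGAA, which reads the same on both strands, was searched in the RefSeq promoter windows (250 bases before to 50 bases after a start, GRCm38.p6) of *Nppc*, *Npr1*, *Npr2*, *Npr3* and *Prkg1*. It was found in 0 of these 6 windows, where 8.3% of 32851 windows held it, which says only that these letters are not in these windows.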

How the data were processed

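RNA-seq of newborn parietal bone was analysed for 3 OsxCre and 3 OsxCre;Stat3fl/fl libraries, grouped by the genotype in the sample labels. The authors deposited, per library, whole-number counts for 44556 gene symbols without normalization. The submitters' processing notes name HISAT2 and GRCm38, while the study's methods describe TopHat and mm9 for FPKM values; the counting program, its strand setting and its annotation are not given in the sources used here. Libraries of a genotype were not duplicates (chi-square per degree of freedom between 7.51 and 15.6).

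Tests were run with edgeR 4.0.16 under R 4.3.3 (filterByExpr, minimum count 10, minimum total 15, TMM factors 0.932 to 1.04, quasi-likelihood test, two-sided, Benjamini-Hochberg adjustment over 15600 genes). The standard error is the log2 fold change divided by the square root of F, and 95% intervals use the t distribution at 7.83 degrees of freedom. DESeq2 1.42.0, limma 3.58.1, other scalings and filters, a replicate block and leaving out each library were alternatives. The fit was tested on simulated counts. Transcript lengths came from GENCODE vM1, positions and promoter windows from RefSeq GRCm38.p6, where *Ostn* and *Prkg2* have no window in the table used. The 7 genes, the other gene lists and the tests were chosen with earlier results of these data known. The genes named are the 7, *Stat3*, sex-linked genes, pathway genes at an unadjusted p under 0.05 or else the most counted of their subgroup, the most counted of each marker list, and the 2 genes nearest each of the 7. Others were named after their values were seen, and a few items that this rule selects are not reported here. Plots used Python 3.11.15, pandas 2.3.3 and matplotlib 3.10.9.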

Additional observations from a re-analysis of the deposited data

How the results depend on the processing

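The count of 0 called genes among the 7 held in all alternatives but 1. Without scaling for library size, which moves the median log2 fold change of all genes to -0.38 and leaves the smaller libraries labelled OsxCre;Stat3fl/fl unadjusted, *Nppc* was called (log2 fold change -0.75, edgeR adjusted p = 0.0381), so 1 gene was called lower. In that setting 5451 of the 15600 genes tested were called lower. The log2 fold changes then became -0.79 for *Ostn*, -0.31 for *Npr1*, -0.25 for *Npr2*, -0.0444 for *Npr3*, -0.38 for *Prkg1* and -0.39 for *Prkg2*. Relative to the shifted median, *Nppc* and *Ostn* stayed lower and *Npr1*, *Npr2* and *Npr3* higher. The pathway genes called lower numbered 13 without scaling, beside those 5451 of all genes. With library totals 1 was called lower (*Ide*), where 114 of the 15600 genes tested were. DESeq2's Wald test also called 1 lower (*Ide*), where it called 231 of the 15600 genes lower. The other alternatives called 0 pathway genes lower.

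The kinase genes, whose fold changes were near 0, changed sign under other settings. *Prkg1* was at -0.0443 with library totals, -0.00593 without the filter and -0.000606 with limma-voom. *Prkg2* was at -0.0311 with library totals, -0.00329 without the filter, -0.0483 with limma-voom and -0.0333 with the replicate block. With 1 library left out, log2 fold changes ranged from -0.55 to -0.24 for *Nppc*, -0.57 to -0.23 for *Ostn*, -0.0154 to 0.19 for *Npr1*, 0.10 to 0.16 for *Npr2*, 0.12 to 0.56 for *Npr3*, -0.0561 to 0.0901 for *Prkg1* and -0.34 to 0.20 for *Prkg2*, with 0 of 7 called each time. The cause of these shifts was not tested.

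Replicate numbers are shared between the groups, but same-numbered libraries did not deviate together (mean correlation of deviations -0.235). For differently numbered libraries this correlation ran from -0.445 (OsxCre library 3 with library 1 labelled OsxCre;Stat3fl/fl) to 0.508 (OsxCre library 2 with that same library). The labels do not give litters, so pairing by litter was not tested. With the replicate number as a block, 0 of the 7 genes were called and the log2 fold change was -0.39 for *Nppc* and 0.40 for *Npr3*. Over all genes, the block left 1 gene lower and 0 higher at the adjusted p, against 75 and 121. These counts were 231 and 307 with DESeq2's Wald test, 178 and 250 without the filter, 5451 and 121 without scaling, and 5 to 36 and 7 to 67 with 1 library left out. *Ostn* had the fewest counts of the 7, 10 to 22 per library.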

Other observations

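Some genes of cyclic GMP signalling were too low to enter the test. *Gucy2c*, which encodes the intestinal guanylyl cyclase receptor and was singled out after its values were seen, had 2, 5 and 3 counts in OsxCre and 13, 6 and 14 counts in the libraries labelled OsxCre;Stat3fl/fl. Fitted without a filter on low counts, *Gucy2c* differed by 2.04 on the log2 scale (edgeR quasi-likelihood adjusted p = 0.0944). *Pde10a* had 0, 1 and 1 counts against 3, 4 and 2 counts. *Nos1* had 4 to 5 counts in OsxCre and 4, 4 and 17 counts in the other genotype.

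Marker lists of other tissues in the dissected bone varied between libraries of a genotype. The adipocyte sum, led by *Fabp4*, was 512.5, 628 and 1904 CPM in OsxCre and 813, 1752 and 1367 CPM in the libraries labelled OsxCre;Stat3fl/fl. Cartilage markers, led by *Col2a1*, summed to 1867 to 3253 CPM and 2827 to 3625 CPM, and endothelial markers, led by *Pecam1*, to 528 to 748.1 CPM and 662.7 to 779.5 CPM. Smooth muscle and pericyte markers, led by *Acta2*, summed to 613.7 to 808.3 CPM and 624 to 749.6 CPM, and osteoclast markers, led by *Ctsk*, to 2196 to 2547 CPM and 1908 to 2629 CPM.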
